A study of Homo sapiens with 2 samples.

Results

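The extended major histocompatibility complex (MHC) and the histone gene cluster before it were examined for sites bound by HA-tagged ETV6. The members were all chromosome 6 peaks of the tagged pool whose summit lay between 25.7 and 33.5 Mb in hg19, a choice by position alone. They numbered 960 of the 315787 peaks in the list. The stretch was divided into histone genes and flanks (25.7 to 28.5 Mb, 123 peaks), class I (28.5 to 31.5 Mb, 480 peaks), class III (31.5 to 32.2 Mb, 157 peaks) and class II (32.2 to 33.5 Mb, 200 peaks). The peaks came from Reh, an established line of pre-B acute lymphoblastic leukaemia that is positive for t(12;21), which joins ETV6 to RUNX1. Cells received the vector pCCL ETV6-HA and went through a pulldown with anti-HA magnetic beads. The control cells received pCCL ETV6, with no tag, and the same pulldown, so both arms carried an ETV6 transgene from the vector. Both were given 200 ng of virus with 8 µg/mL polybrene and were cultured for 2 weeks. Each arm was 1 pool of 1 line.

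ETV6 is a transcription factor of the ETS family that acts mainly as a repressor and binds DNA around a GGAA core. The histone cluster of 6p22 holds most human genes for replication-dependent histones, whose transcripts rise in S phase, and lies among many tRNA and zinc finger genes. The MHC of 6p21 follows in the order class I, class III and class II. Class I genes encode molecules that present peptides to cytotoxic T cells. Class II genes such as HLA-DRA and HLA-DQB1 do so to helper T cells and are expressed in the B lineage. Class III, packed with genes, holds those of complement factors and of tumour necrosis factor.

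The tagged pool has 1 peak list and 0 replicates, and the untagged pool was read here only through the background value at each peak, on the assumption that it was the control. Nothing below compares conditions, and no p-value was computed. Intervals are exact 95% intervals that cover counting error over peaks only. Depth is given as the pileup, the number of reads over a peak's summit, which was 12 at the lowest peak of the list. The shared background is the level of 4.29 reads that most peaks had, and 1 read changes the fold over it by 0.189. Only 4.19% of the list had a background above it. At peaks with the shared background the fold follows the pileup alone and holds no separate value of the untagged pool for that place. No annotation in hg19 was used, so no peak is placed in a gene here.

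Peaks were sparser in the histone subdivision than in each of the 3 MHC subdivisions, taken as whole intervals. The histone subdivision had 43.9 peaks per Mb (36.5 to 52.4), class I had 160.0 (146.0 to 175.0), class III had 224.3 (190.6 to 262.2) and class II had 153.8 (133.3 to 176.7). The histone subdivision therefore had 0.262 times (0.215 to 0.317) the density of the other 3 together, or 0.426 times (0.350 to 0.515) with stretches of over 100 kb without peaks left out of each length. Class III had 1.98 times (1.66 to 2.36) that of its other 3. Of the 6 pairs of subdivisions, 5 had a ratio whose interval lay away from 1. These intervals take peaks as independent and are too narrow where counts are uneven from place to place. Over 100 kb bins, the ratio of variance to mean was 3.55 (histone), 4.34 (class I), 1.07 (class III) and 3.78 (class II). That ratio is near 1 for independent peaks, so the 5 is no count of significant differences. Class III was 5.11 times (4.01 to 6.52) as dense as the histone subdivision, class I 3.64 times (2.98 to 4.48) and class II 3.50 times (2.78 to 4.42). Class III was also 1.40 times (1.16 to 1.68) as dense as class I and 1.46 times (1.18 to 1.81) as dense as class II. Classes I and II had a ratio of 1.04 (0.88 to 1.23), which reaches from somewhat below to somewhat above equal density.

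The low density of the histone subdivision was seen at each height of peak that was counted. With at least 14 reads, class III had 5.60 times (4.12 to 7.64) the density of the histone subdivision, from 105 and 75 peaks. With at least 16 reads the ratio was 5.57 (3.16 to 9.96), from 32 and 23 peaks, and with at least 18 reads 3.60 (1.29 to 9.86), from 9 and 10 peaks. For class I the ratio was 3.98 (2.51 to 6.56) at 16 reads or more, and for class II it was 4.31 (2.56 to 7.45). The intervals widened with height because few tall peaks were left.

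**Figure D1:**
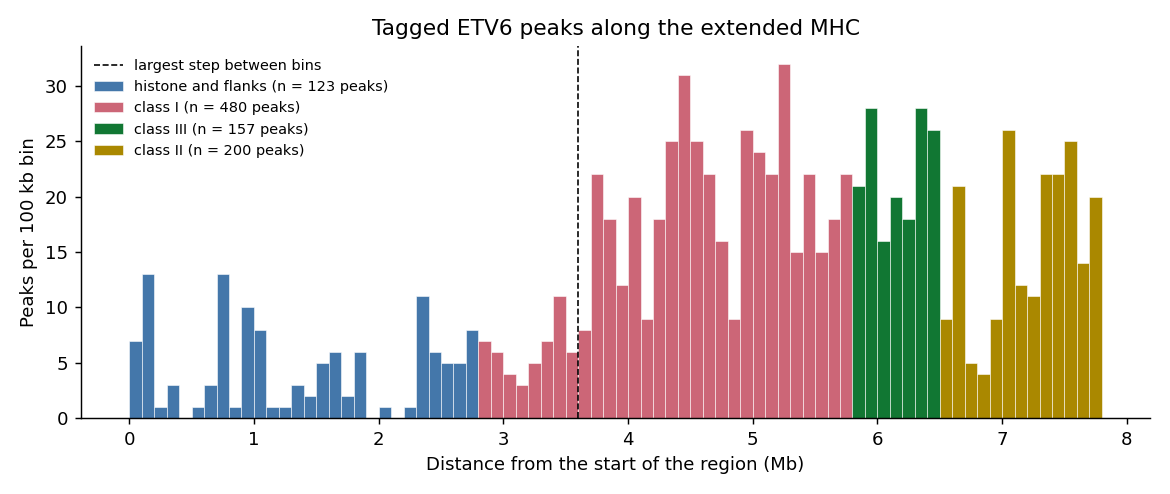
Peaks per 100 kb bin (y) against the distance from the start of the region in Mb (x), coloured by subdivision, with a dashed line at the largest step between bins. The histone bins hold at most 13 peaks, and the bins of class III hold 16 to 28.

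The rise in density did not fall on the border between histone genes and class I. That border, at 28.5 Mb, lay between a peak at chr6:28486144-28486203 and one at chr6:28506726-28506788, with 43 peaks in the 1 Mb before it and 79 in the 1 Mb after. The largest step between neighbouring sets of 5 bins of 100 kb lay at 29.3 Mb, inside class I, a point found by search and so no independent estimate. The 0.8 Mb of class I before it had 49 peaks, or 61.2 per Mb (45.3 to 81.0), and the 2.2 Mb after it had 431, or 195.9 per Mb (177.8 to 215.3). The histone subdivision was 0.717 times as dense as the first of these (0.511 to 1.02), an interval that includes 1. Against class I after the step, class III was 1.14 times as dense (0.948 to 1.38), an interval that includes 1. The step was placed where these same counts differed most, so ratios to either part of class I are shaped by that choice. They do not decide whether class III exceeds class I. The ratio of class III to class II, 1.46 (1.18 to 1.81), does not use the step. Class II was 0.785 times as dense (0.661 to 0.931) as class I after the step. At the border of 31.5 Mb there were 205 peaks in the 1 Mb before and 192 in the 1 Mb after, and at 32.2 Mb there were 212 and 141. At the end of the region, 33.5 Mb, the numbers were 165 before and 255 after.

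Within subdivisions the 100 kb bins varied widely. The histone bins had a median of 3 peaks and a range of 0 to 13, and 15 of 28 held at most 3. The 30 class I bins had a median of 17, from 3 at 28.8 to 28.9 Mb to 32 at 30.9 to 31.0 Mb. In class III the 7 bins held 16 at 31.7 to 31.8 Mb and 28 in each of the bins starting at 31.6 and 32.0 Mb, with a median of 21. The 13 class II bins had a median of 14, and the densest, at 32.7 to 32.8 Mb, held 26. Class II dipped between 32.4 and 32.7 Mb, where 3 bins in a row held 5, 4 and 9 peaks, after a bin of 21 and before that bin of 26. Autosomal bins of this size outside chromosome 6 had a median of 9 peaks (26215 bins), and 1761 of them held none. In those bins 18.6% held at most 3 peaks and 16.2% held at least 20, against 53.6% and 0% of the histone bins and 0% and 71.4% of the class III bins.

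**Figure D2:**
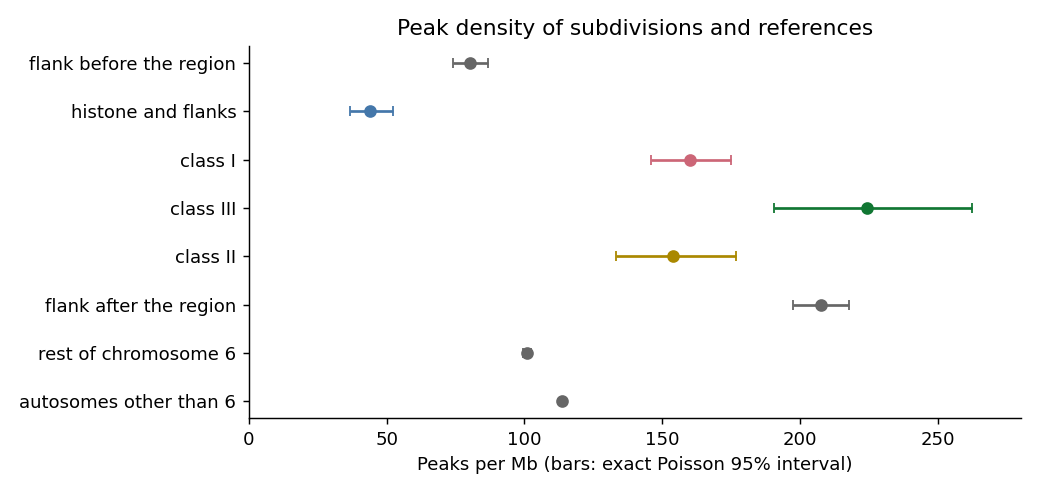
Peaks per Mb (x) of the 4 subdivisions, of flanks of 7.8 Mb on either side, of the rest of chromosome 6 and of the other autosomes (y), with exact Poisson 95% intervals as bars. The flank after the region, at 207.6 per Mb, lies above class I and class II, and its interval lies inside that of class III.

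As a whole the region was close to average, since it joins a sparse and a dense stretch. It had 123.1 peaks per Mb (115.4 to 131.1), which was 1.22 times (1.14 to 1.30) the 100.9 per Mb of the rest of chromosome 6 and 1.08 times (1.02 to 1.15) the 113.7 per Mb of the other autosomes. The histone subdivision had 0.386 times (0.321 to 0.461) the density of the other autosomes, class I 1.41 times (1.28 to 1.54), class II 1.35 times (1.17 to 1.55) and class III 1.97 times (1.68 to 2.31). These intervals treat peaks as independent, and densities vary from place to place, so each subdivision was also ranked among autosomal windows of its own length laid end to end outside chromosome 6. Windows and reference lengths ran from the first to the last peak of a chromosome, with long stretches without peaks left in. Of 926 windows of 2.8 Mb, 14.04% were sparser than the histone subdivision, and 18 windows held no peak. Of 3736 windows of 0.7 Mb, 8.22% were denser than class III, and 145 held no peak. For class I the share of denser windows was 22.8% of 864, for class II 26.5% of 2006 and for the whole region 36.9% of 328. Densities like these were therefore found in many other places.

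The chromosome beyond the region was as dense as class III within counting error, and denser than classes I and II. The 7.8 Mb after the region, up to 41.3 Mb, had 207.6 peaks per Mb (197.6 to 217.9, 1619 peaks). The ratio of class III to this flank was 1.08 (0.911 to 1.27), an interval that includes 1. Class I had 0.771 times (0.695 to 0.854) and class II 0.741 times (0.637 to 0.859) the density of that flank. The 7.8 Mb before the region, from 17.9 Mb, had 80.3 per Mb (74.1 to 86.8, 626 peaks), and the histone subdivision had 0.547 times (0.447 to 0.665) that density. The histone subdivision was thus sparser than both flanks of the region. Against the part of class I next to it, before the step found by search, its ratio was 0.717 (0.511 to 1.02), which includes 1. Against both flanks together the whole region had 0.855 times (0.792 to 0.923) their density, the opposite direction to that against the rest of the chromosome. The bins of 1 Mb from 26 to 27 and from 27 to 28 Mb held 41 and 26 peaks, fewer than each of the other 27 bins of 1 Mb between 17 and 46 Mb, which held 59 to 300.

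Long stretches without peaks marked the histone subdivision. The 7 distances over 100 kb between neighbouring summits in the region all lay there, and the classes I, III and II had 0 each. The longest ran for 216.2 kb from the peak at chr6:27754641-27754753 (15 reads) to that at chr6:27970775-27970903 (15 reads). The peak that starts it also ended the stretch before, of 200.9 kb, which began at chr6:27553726-27553851 (18 reads). Between 27553813 and 27970845 there was thus a single summit. The remaining stretch of over 200 kb ran for 202.6 kb from chr6:26090992-26091137 (16 reads) to chr6:26293561-26293620 (13 reads). Others of 124.6, 121.5, 108.5 and 100.8 kb completed the set. Whether histone genes lie in these stretches was not tested.

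So many long stretches were rare elsewhere, also where peaks were as few. Of the 926 autosomal windows of 2.8 Mb outside chromosome 6, 5 had at least 7 such stretches (0.54%). Among the 106 windows with 100 to 147 peaks, within 20% of the number in the histone subdivision, the median was 2 and the most was 5. A count of 0 in 106 allows a share of up to 2.83%. This comparison was chosen after the stretches had been seen. The longest distance was 98.8 kb in class I, 71.8 kb in class III and 73.6 kb in class II.

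**Figure D3:**
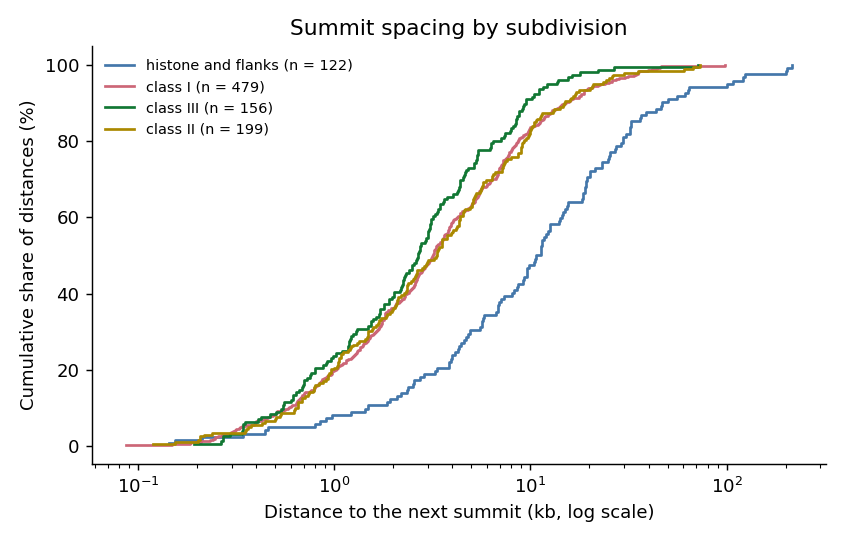
Cumulative share of distances in percent (y) against the distance to the next summit in kb on a log scale (x), 1 line per subdivision. The histone line lies to the right of the others over most of its course and ends at 216.2 kb, and the other 3 lie close together.

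Summit spacing followed density. The median distance to the next summit was 11.002 kb (8.26 to 14.2, n = 122) in the histone subdivision. It was 3.17 kb (2.74 to 3.62, n = 479) in class I, 2.67 kb (2.22 to 3.08, n = 156) in class III and 3.33 kb (2.46 to 4.16, n = 199) in class II. The intervals of the 3 MHC classes overlapped one another and lay apart from that of the histone subdivision. The median was 12.3 kb (7.36 to 18.8) in class I before the step and 8.04 kb (6.69 to 9.05) in the flank before the region. Both intervals overlapped that of the histone subdivision, so long spacing was not particular to it. The mean distances were 22.6 kb in the histone subdivision, 6.24 kb in class I, 4.45 kb in class III and 6.36 kb in class II. The median was 0.486 of the mean in the histone subdivision, 0.508 in class I, 0.601 in class III and 0.524 in class II, against 0.496 in the rest of chromosome 6. By that measure class III was the most evenly spaced of the 4, with no test of the difference. The ratio was 0.761 in class I before the step and 0.573 after it. In the flanks before and after the region it was 0.646 and 0.597, so the value of class III was not particular to it.

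Close pairs were rarer in the histone subdivision than in class I, class III or class II. The intervals of class I and class II held the share of the whole list, and that of class III lay just above it. The next summit lay within 1 kb for 23.7% (17.3 to 31.2) of the distances in class III, 20.6% (15.2 to 26.9) in class II and 19.8% (16.4 to 23.7) in class I. In the histone subdivision 10 of 122 did so (8.2%, 4.0 to 14.6). The share was also low in class I before the step, 6.25% (1.31 to 17.2), and in the flank before the region, 8.8% (6.70 to 11.3). A low share was thus not particular to the histone subdivision. Over the whole list the share was 17.1%, and over the region it was 19.1% (16.6 to 21.7), and it depends on density. Runs of summits each at most 1 kb from the next took in 326 of the 960 peaks, in 143 runs. Runs of 3 or more peaks numbered 15 in class I, 10 in class III, 6 in class II and 0 in the histone subdivision, and none in the region exceeded 4 peaks. Of the 9 runs of 4, the tallest summit was in class III at chr6:31526670-31528421. Peaks with a neighbour within 1 kb were about as tall as the rest, with at least 16 reads in 20.2% (16.02 to 25.02) of 326, against 21.0% (17.9 to 24.4) of 634.

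**Figure D4:**
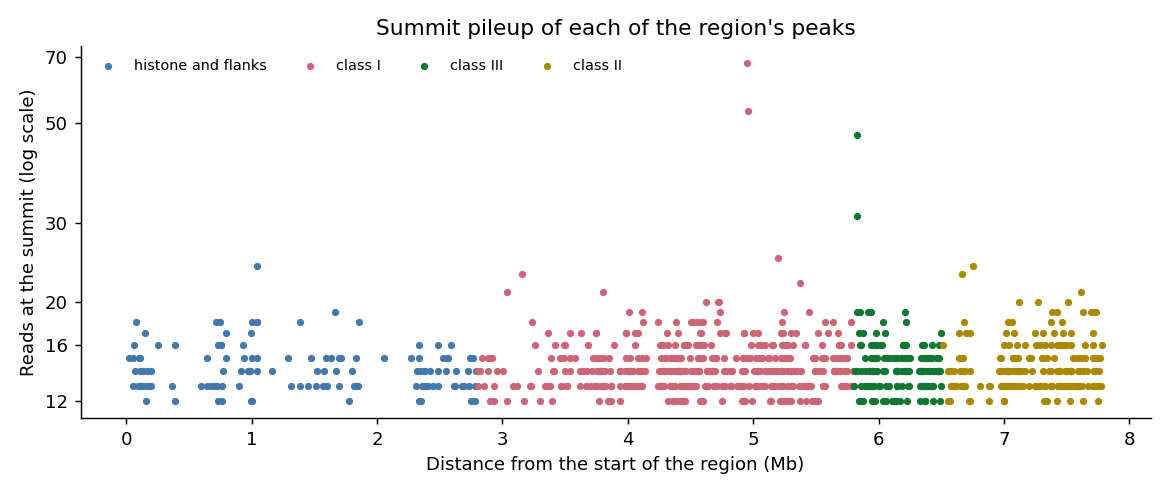
Reads at the summit on a log scale (y) of each of the 960 peaks against the distance from the start of the region in Mb (x), coloured by subdivision. Nearly all points lie between 12 and 20 reads, and 4 points reach 31 reads or more, in 2 places.

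Heights differed little between the subdivisions, in contrast to density. The median pileup was 14 reads in each of the 4, with quartiles of 13 and 15, and the median fold was 2.84. At least 16 reads were reached by 199 of the 960 peaks (20.7%, 18.2 to 23.4), against 21.2% of the whole list. The share was 18.7% (12.2 to 26.7) in the histone subdivision, 20.4% (16.9 to 24.3) in class I, 20.4% (14.4 to 27.5) in class III and 23% (17.4 to 29.5) in class II. All 4 intervals overlapped and held the share of the whole list. A q value of at most 0.01 was given to 195 peaks (20.3%, 17.8 to 23), against 20.7% of the list. At least 20 reads were reached by 19 peaks (1.98%, 1.196 to 3.07), against 2.66% of the list. Of these 19, 10 lay in class I, 6 in class II, 2 in class III and 1 in the histone subdivision. The flank before the region had a lower share with 16 reads or more, 14.9% (12.2 to 17.9), and the flank after it had 19.8% (17.9 to 21.9).

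The tallest peaks stood in 2 places of the MHC. In class I, the peak at chr6:30650261-30650805 had 68 reads, a fold of 13.1 and a −log10 q of 51.4, the highest of the region and 197th in the whole list by q. A second tall peak followed 4838 bp further on, at chr6:30655135-30655426, with 53 reads and a fold of 10.2. A single summit of 15 reads lay between them. In class III, close to its border with class I, the peak at chr6:31528121-31528421 had 47 reads and a fold of 9.08. Its neighbour at chr6:31527761-31528043, whose summit was 336 bp away, had 31 reads and a fold of 6.05. Another summit 921 bp before that, at chr6:31526810-31527068, had 19 reads, and together with 1 more they formed the run of 4 named above. Apart from these, 1 peak reached 25 reads, at chr6:30894538-30894700 in class I with a fold of 4.92. The 5 peaks with at least 25 reads were 0.521% (0.169 to 1.21) of the members, against 0.889% of the list.

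The histone subdivision and class II had no peak of that height. The strongest of the histone subdivision, at chr6:26739768-26740421, had 24 reads and a fold of 4.73, and at 654 bp it was the widest peak of the region. Its neighbours lay 341 bp before and 1865 bp after it, and the stretch of 121.5 kb without peaks began 5467 bp after its summit. The next in that subdivision were chr6:27362119-27362253 with 19 reads and chr6:25777027-25777173 with 18. In class II the strongest was chr6:32452499-32452664 with 24 reads, which stood alone in the sparse stretch of that class, 25089 bp from the summit before it and 60742 bp from the next. It was followed by chr6:32366794-32367064 with 23 reads and chr6:33315270-33315464 with 21. In the sparse start of class I, the peaks at chr6:28860042-28860188 and chr6:28735428-28735667 had 23 and 21 reads, so sparse stretches were not without taller peaks. All 20 of the strongest members by q had the shared background.

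Peak width followed height and differed little between subdivisions. The median width was 89 bp (82 to 102) in the histone subdivision, 101 bp (93 to 107) in class I, 99 bp (88 to 114) in class III and 98 bp (88 to 110) in class II. The whole region had 98.5 bp (94 to 103), against 99 bp for the autosomes other than 6. At 12 or 13 reads the medians were 69.5, 72, 69.5 and 73.5 bp in the order of the chromosome. At 14 or 15 reads they were 93 bp (83 to 111), 109 bp (98 to 114), 113 bp (94 to 125) and 102.5 bp (94 to 114). At 16 or 17 reads they were 128, 142, 140 and 147 bp. The histone median was the lowest or level with the lowest in each of these classes of height, and its interval overlapped those of the others each time.

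**Figure D5:**
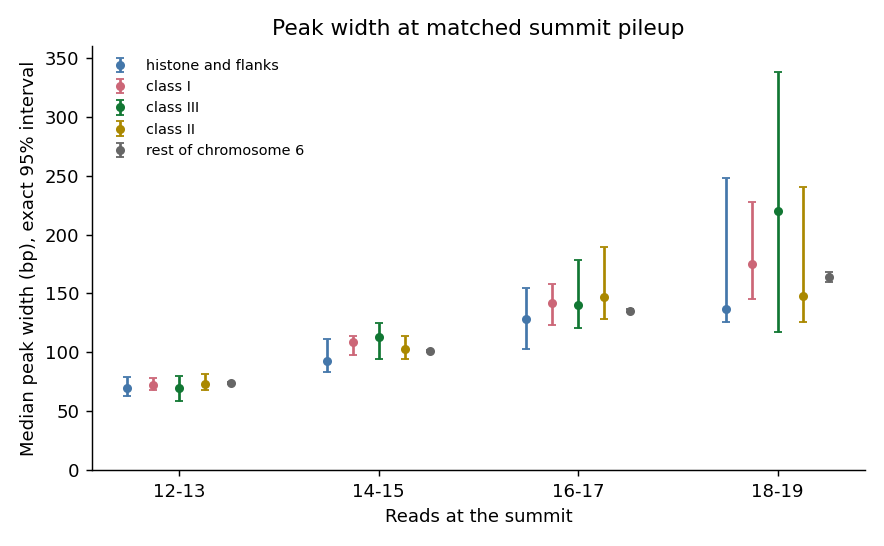
Median peak width in bp with its exact 95% interval (y) by reads at the summit (x) for the 4 subdivisions and the rest of chromosome 6. At each height the intervals of the 4 subdivisions overlap, and width grows with height in each.

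The widest members were not always tall. Apart from the histone peak of 654 bp, the widest of each subdivision were the class I peak of 68 reads at 545 bp, a class II peak at chr6:32343915-32344292 with 378 bp and 17 reads, and a class III peak at chr6:31675130-31675484 with 355 bp and 16 reads. The peaks together covered 0.457% of the histone subdivision, 1.80% of class I, 2.51% of class III and 1.81% of class II. Summits lay near the middle of the peaks, at a median of 48.5% (45.98 to 50) of the width from the start.

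The background recovered at the members was mostly at the shared level. It was above the shared level at 23 of the 960 peaks (2.40%, 1.52 to 3.57), against 4.19% of the list and 3.87% (3.58 to 4.18) of the rest of chromosome 6. By subdivision the numbers were 2 of 123, 12 of 480, 3 of 157 and 6 of 200 along the chromosome. The highest background was 7.52 reads, at chr6:31481590-31481756 in class I, where 18 reads gave a fold of 2.23. The next level was 5.64 reads, found among others at chr6:32362626-32362868 and chr6:32426391-32426507 in class II. None of the members with a raised background exceeded 18 reads.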

How the data were processed

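Sonicated chromatin from Reh cells transduced with 200 ng of virus and 8 µg/mL polybrene and cultured for 2 weeks was pulled down with anti-HA beads, per the labels. The 2 samples are named pools, although the design text speaks of triplicates. Bowtie2 2.2.3, MACS2 2.1.1.20160309 and hg19 were used, per the submitters' processing notes. How each was set is not given in the sources used here. The authors deposited 1 narrowPeak list for the tagged pool. The fold column, as deposited, was taken to be a ratio of pileup to local background, each plus 1. The deposited −log10 columns were taken to hold p and q on that scale, with all q values below 0.1. The deposited score column was not used. Deposited starts count from 0, and coordinates here count from 1.

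Pileup and background were solved from the fold and the Poisson tail for p. The pileup was whole within 0.05 for all but 1 peak of the list, and a background within 0.005 of 4.29 was called shared. On 20000 simulated peaks made with these same formulas, 100% of pileups were recovered. That checks the solving alone, and not whether the deposited columns follow the formulas. Densities have exact Poisson intervals, their ratios conditional binomial, shares Clopper-Pearson and medians order-statistic intervals. Peaks named were the 20 strongest by q, the 3 strongest and the widest of each subdivision, the 3 with the highest background, and those beside borders and long gaps. Bins named outside those extremes, the runs of peaks and further gaps were chosen after their values were seen. The members and lists were chosen with earlier results of these data known. The gene tables at hand are of GRCh38.p14, so none of their coordinates were used. The tools were scipy 1.17.1, numpy 2.4.6, pandas 2.3.3 and, for plots, matplotlib 3.10.9, all under Python 3.11.15.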

Additional observations from a re-analysis of the deposited data

How the results depend on the processing

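Of 50 values under alternatives, 37 stayed inside the interval of the reported value, 12 moved outside it and 1 changed direction. The density ratio of the region, 1.22 to the rest of chromosome 6, was 1.08 to all other autosomes (chosen after seeing the data), 1.09 to autosomes other than 3, 6 and 21, and 0.855 to flanks of equal length on both sides, which turns its direction. It was 1.13 with peaks within 1000 bp merged and 1.34 without peak-free stretches over 100 kb. Leaving those stretches out by construction shortens the sparse parts: the ratio to the other 3 rose to 0.426 for the histone subdivision and fell to 1.24 for class I and 1.10 (0.935 to 1.28) for class II. At q of at most 0.01 class II had 1.54 times the density of the others, 0.513% of members had a raised background, and 100% had at least 16 reads, since that limit nearly equals 16 reads. A fold of at least 3.0 was reached by 37.1% of members, because it admits 15 reads. Merging lowered the ratio of histone to other spacing from 3.61 to 2.55. At q of at most 0.01 that ratio was 3.93 (0.808 to 8.52), an interval that includes equal spacing. Causes not given here were not tested. Window ranks moved little when the windows were laid from another start, 0.5 of a window further on, a check added later: 8.30% were denser than class III and 14.2% sparser than the histone subdivision. No paired analysis was possible because there is 1 pooled list, and no replicate could be left out. Pileups near 12 reads limit every height comparison.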

Other observations

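Gene content by order, and not by position, sets the subdivisions apart. RefSeq (GRCh38.p14) lists 53 histone, 13 zinc finger and 104 tRNA genes from SLC17A4 to GPX5. From the next gene to MICB it lists 6 protein-coding HLA genes, 14 olfactory receptor genes and 40 tRNA genes. From DDX39B to NOTCH4, in class III, it lists 58 protein-coding genes and 0 of the histone, HLA or tRNA genes, and from TSBP1 to ZBTB9, in class II, 13 HLA genes. These intervals follow landmark genes near the textbook borders and are not the hg19 intervals of the peaks.

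The 8 letters CCGGAAGT, a consensus of ETS factors, were searched on both strands of RefSeq promoters from 250 bases before to 50 after the gene start. They were found for 16 of 228 protein-coding genes of these intervals that have a promoter in the table (7.02%), against 6.97% of all protein-coding genes. The share was 6.49% (2.14 to 14.5, 5 of 77) from SLC17A4 to GPX5, 4.76% (0.993 to 13.3, 3 of 63) up to MICB, 7.69% (2.14 to 18.5, 4 of 52) in class III and 11.1% (3.11 to 26.1, 4 of 36) in class II. All intervals were wide and held the share of all genes. They treat genes as independent, although NELFE and SKIC2 in class III, and RPS18 and VPS52 in class II, are pairs that share a matched site. None of these sites was matched to a peak, and a match is a description of letters only. The sites below show a histone gene, a class I gene and 2 pairs of genes, of class III and of class II, that share the site shown in opposite orientation, with the match in capitals. They were chosen after all matches were listed. Of the 53 histone genes listed from SLC17A4 to GPX5, only H3C6 had a match. The other 4 matched genes there were ZKSCAN3, ZKSCAN8, ZNF184 and ZSCAN9, of 13 zinc finger genes listed. Shares by family among genes with a promoter were not computed, here or over all genes, and an excess of either family was not tested. H3C6 encodes a histone H3, PPP1R11 an inhibitor of protein phosphatase 1, NELFE a subunit of the negative elongation factor, SKIC2 an RNA helicase, RPS18 a ribosomal protein and VPS52 a vesicle tethering protein.
H3C6: ctacggccACTTCCGGaatttagc
PPP1R11: gcggcgagCCGGAAGTggggttag
NELFE: tagaggcaACTTCCGGtacagccc
SKIC2: gggctgtaCCGGAAGTtgcctcta
RPS18: aaggcgcaCCGGAAGTtgtggtac
VPS52: gtaccacaACTTCCGGtgcgcctt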
